A study of Mus musculus with 18 samples.

Results

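The dependence of the response to CYC065 on DNA content was examined in sorted murine lung cancer cells. For each gene, the log2 ratio of 4N to 2N cells in vehicle-treated cells was subtracted from the same ratio in CYC065-treated cells, and this difference equals the CYC065 response of 4N cells minus that of 2N cells. The 12 deposited columns of sorted cells, out of 18 columns in the series, entered the calculation. Of 55450 annotated genes, 12215 had a summed count of at least 100 in 1 of the 4 sorted conditions and were tested. ED1SQ4 cells derive from a lung cancer of a cyclin E-overexpressing transgenic mouse, and all conditions used this 1 cell line. Cells received vehicle or 0.5 μM CYC065, a CDK2/9 inhibitor, for 72 hours, were stained with a DNA dye and were sorted into diploid (2N) and polyploid (4N) populations. The 2 unsorted conditions, 1 per treatment, are used here only as a readout that the difference does not include.

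CDK2 with cyclin E or cyclin A drives entry into and passage through S phase, CDK1 with cyclin B drives entry into mitosis, and CDK9 releases paused RNA polymerase II. Genes needed for DNA synthesis peak before and during S phase under E2F factors, while genes needed for the spindle and for cytokinesis peak in G2 and mitosis, in part through promoter elements known as CHR and CCAAT boxes. A gate on DNA content cannot separate a diploid cell in G2 or mitosis from a tetraploid cell in G1, and in bulk RNA fewer cells of a type and less RNA per cell cannot be told apart.

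The 3 columns of a condition carry 1 library number. Over genes with whole counts, they varied by a chi-square per degree of freedom between 0.9986 and 1.007 in the sorted conditions, no more than sampling noise, so each condition was counted as 1 library. Summed counts were between 54750203 and 62795507 per sorted library. The tests therefore compare 4 libraries and their errors cover counting only. There was no replicate check across cultures. Of 18 lung epithelial markers, 1 or 2 reached 30 counts in any library. *Epcam* had 0 or 1 counts and *Nkx2-1* had 0 in each library, whereas 14 or 15 of 16 fibroblast and mesenchymal markers reached 30 counts, at a summed level between 11700 and 17500 CPM in the sorted libraries. Of 14 immune cell markers, 3 or 4 reached 30 counts in each library, among them *Cd14* and *Cd68*. *Ptprc*, the pan-leukocyte marker, had 0 or 1 counts. The sequenced cells thus carried the markers of mesenchymal rather than of epithelial cells under both treatments and in both gates.

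To show matches to the elements searched for, 3 promoters are printed as RefSeq gives them, in the GRCm38.p6 build. They run from 250 bases before to 50 bases after the transcription start, on the strand of the gene. Each is a single example and need not be typical of its gene group. Capitals mark matches to CHR (TTTGAA or TTCGAA), to the box CCAAT and to E2F (TTTGGCG or TTTCCCG or TTTCGCG) on either strand in *Bard1* and *Kif11*, examples of a repair and a mitotic gene with a higher difference. In *Myl9*, an example of a contractile gene with a lower one, capitals mark a CArG box, the binding element of serum response factor. *Bard1* lies at chr1:71102923-71103222 on the minus strand, *Kif11* at chr19:37376132-37376431 on the plus strand and *Myl9* at chr2:156775214-156775513 on the plus strand.
Bard1: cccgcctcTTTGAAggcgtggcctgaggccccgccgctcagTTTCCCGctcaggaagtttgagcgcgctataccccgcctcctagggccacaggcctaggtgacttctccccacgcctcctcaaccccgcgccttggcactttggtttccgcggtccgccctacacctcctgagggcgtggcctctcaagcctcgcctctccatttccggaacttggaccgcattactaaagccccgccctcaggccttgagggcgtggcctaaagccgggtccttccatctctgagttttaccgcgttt
Kif11: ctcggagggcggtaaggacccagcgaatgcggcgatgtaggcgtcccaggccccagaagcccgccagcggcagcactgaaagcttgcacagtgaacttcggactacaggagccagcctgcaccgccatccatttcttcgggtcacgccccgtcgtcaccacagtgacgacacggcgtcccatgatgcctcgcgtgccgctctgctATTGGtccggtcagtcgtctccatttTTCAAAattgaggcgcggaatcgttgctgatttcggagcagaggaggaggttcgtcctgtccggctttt
Myl9: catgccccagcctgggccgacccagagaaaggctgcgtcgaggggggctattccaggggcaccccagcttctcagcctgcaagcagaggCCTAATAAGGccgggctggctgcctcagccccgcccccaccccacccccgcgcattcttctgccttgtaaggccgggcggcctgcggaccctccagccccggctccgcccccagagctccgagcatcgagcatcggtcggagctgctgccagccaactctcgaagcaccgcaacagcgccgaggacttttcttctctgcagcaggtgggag
The first base of the match nearest the start lay at position -19 in *Kif11*, a CHR match with a CCAAT match beginning at -45. In *Bard1*, a CHR match began at -242 and an E2F match at -209, and in *Myl9* the CArG box began at -161.

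Between the treatments, the 4N/2N ratio differed beyond 1 on the log2 scale for 256 genes at an adjusted P below 0.05 with edgeR's quasi-likelihood test, which is 2.10% of the genes tested. The ratio was higher with CYC065 for 110 genes (0.901%) and lower for 146 genes (1.20%). At a limit of 0.5, 1127 genes (9.23%) were called, 573 higher (4.69%) and 554 lower (4.54%). The median difference of all genes was 0.006, and the central 95% of genes lay between -0.79 and 0.76. Spread between cultures could not be measured. An assumed coefficient of variation of 0.2 for it left 3 genes called, and one of 0.1 left 75. Values just inside the limit of 1 were those of *Prdm1* (1.00) and *Cygb* (-1.01), and just outside it were those of *Lncppara* (0.9999) and *Tigd5* (-0.9995).

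**Figure D1:**
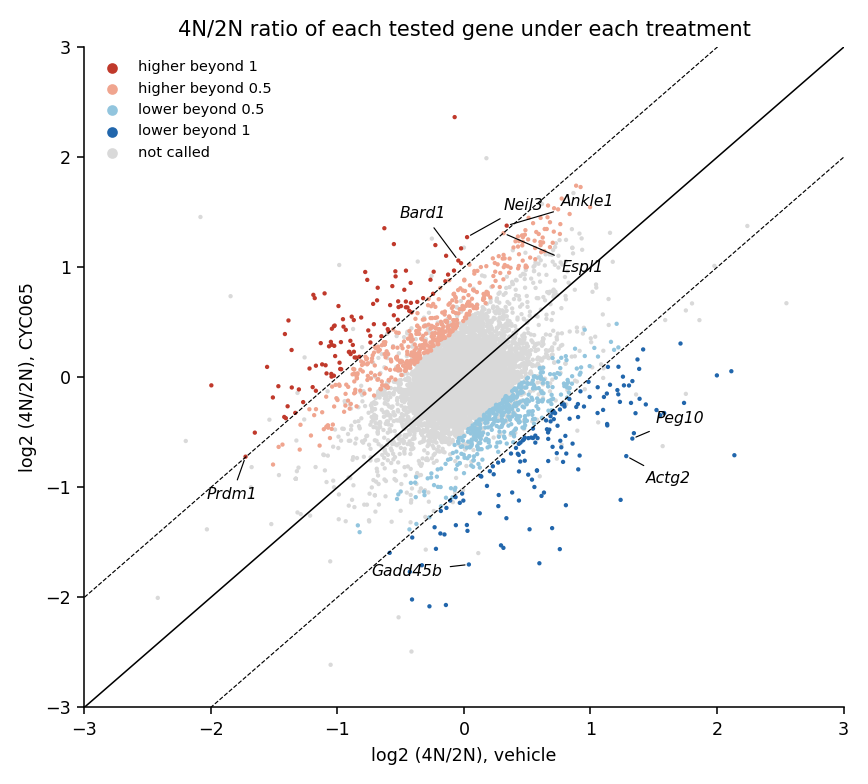
Each point is 1 of the tested genes, with its log2 ratio of 4N to 2N cells under vehicle on the horizontal axis and under CYC065 on the vertical axis. The solid line marks equal ratios and the dashed lines a difference of 1, colors mark the calls, and 14 genes lie outside the axes. The 110 genes higher beyond 1 (red) and the 146 lower beyond 1 (blue) lie above and below the dashed lines.

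The lower calls were mostly genes with a higher level under CYC065. That the response of a lower gene is larger in 2N than in 4N cells follows from the call itself. Of the 146 genes lower beyond 1, 94 had a CYC065/vehicle ratio above 1 in both populations, 29 had one above 1 in 2N and below 1 in 4N cells, and 23 had one below 1 in both. Their median log2 response was 1.83 in 2N and 0.43 in 4N cells, and 0.75 in unsorted cells, which the difference does not use. The genes higher beyond 1 split otherwise, with 28 lower with CYC065 in both populations, 38 higher in both, and 44 lower in 2N and higher in 4N cells. These counts rest on the sign of each response alone, and no such shares were taken over all genes tested. The median log2 responses of all genes were -0.005 in 2N and 0.007 in 4N cells. A gene could also pass the count filter through a CYC065 library alone. Among the 573 genes higher beyond 0.5, 290 were lower with CYC065 in both populations, and the 573 genes had median log2 responses of -0.80 in 2N and -0.03 in 4N cells. In unsorted cells, 215 of these 573 genes lay under -1, while 1445 of all 12215 genes did (11.8%).

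Among the genes with whole counts, at least 300 counts and an established name, 10 had a higher difference beyond 1 and all are described here. Levels are given as CPM, counts scaled to a common library size, first for vehicle-treated 2N and 4N cells and then for CYC065-treated 2N and 4N cells. *Neil3*, a DNA glycosylase of replication-associated repair, had 18.1 and 18.4 CPM with vehicle and 6.73 and 16.3 CPM with CYC065. *Bard1*, the partner of BRCA1 in homologous recombination, had 51.8 and 50.3 CPM with vehicle and 24.7 and 51.6 CPM with CYC065. In both genes, the CYC065 2N library alone was low, and the other three lay close together. The differences were 1.25 (standard error 0.11) for *Neil3* and 1.11 (standard error 0.06) for *Bard1*. *Lrr1*, which serves in replisome disassembly, had 9.62, 9.11, 2.50 and 4.91 CPM in the same order, so that 4N cells with CYC065 lay between CYC065 2N cells and both vehicle libraries. *Dscc1*, a subunit of the clamp loader for sister chromatid cohesion, had 20.7, 16.6, 4.94 and 8.13 CPM. *Ankle1*, an endonuclease, fell from 7.55 to 0.749 CPM in 2N and from 9.54 to 1.96 CPM in 4N cells. *Nsl1*, a subunit of the MIS12 complex of the kinetochore, had 26.0, 23.8, 9.78 and 18.7 CPM. *Slc9a2*, a sodium/proton exchanger, and *Dleu2*, a noncoding RNA that hosts microRNAs, differed by 1.17 and 1.15 (both with a standard error of 0.17).
A pair of these 10 genes had a higher level with CYC065 in both sorted populations. *Prdm1*, a transcriptional repressor, had 48 and 15 counts with vehicle and 393 and 280 counts with CYC065, and *Glis1*, a zinc finger factor, had 213, 123, 352 and 469 counts. In unsorted cells with vehicle and with CYC065, *Prdm1* had 54 and 457 counts, but *Glis1* had 413 and 427. *Prdm1* fell to 0.61 without the third column of each condition, and its adjusted P with edgeR then was 0.336. Leaving out 1 column also took *Slc9a2* to 0.90, *Lrr1* to 0.93 and *Nsl1* to 0.97. It took *Dleu2* and *Glis1* to 0.98 and *Dscc1* to just under the limit, whereas *Neil3*, *Bard1* and *Ankle1* stayed past it. The columns are parts of 1 library, so leaving out a column removes reads only and does not test stability between cultures. Counting intervals ran from 1.04 to 1.46 for *Neil3*, from 0.989 to 1.22 for *Bard1* and from 0.50 to 1.57 for *Ankle1*. *Ankle1* had 41 counts in CYC065 2N cells, and its difference had a standard error of 0.23.

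**Figure D2:**
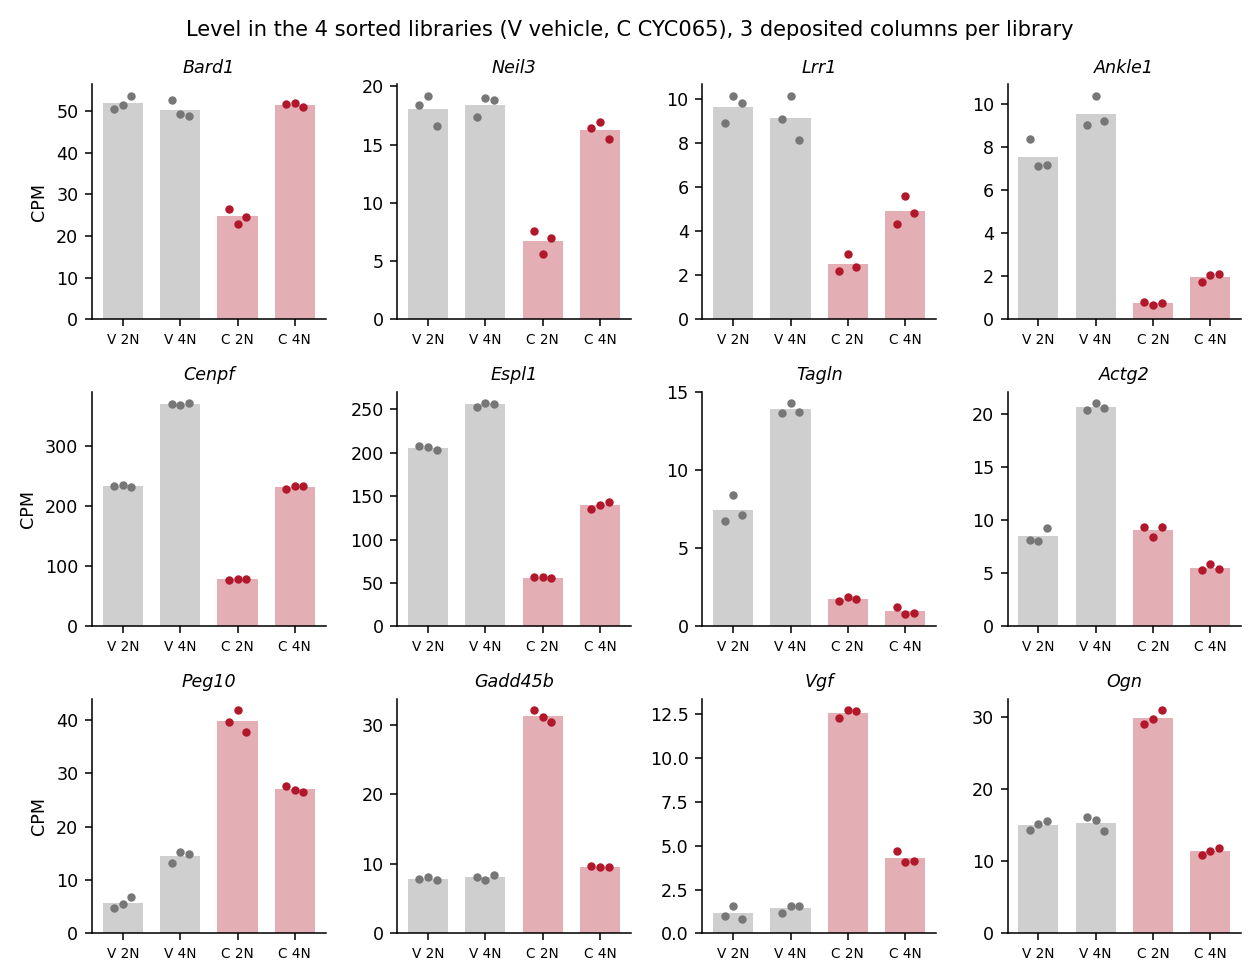
Bars give the level as CPM (counts scaled by TMM to a common library size) as the mean of the 3 deposited columns of each library, and points give the columns, which are parts of 1 library and not cultures. Vehicle libraries are gray and CYC065 libraries red. In *Bard1* and *Neil3* the CYC065 2N library is the low one, and in *Gadd45b*, *Vgf* and *Ogn* it is the high one, while *Actg2* is highest in vehicle 4N cells, at 20.6 CPM.

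Genes of mitosis had higher differences, and in the 4 lists given first no member was called lower. Of 14 mitotic kinesins, the motors that build and move the spindle, 10 were higher beyond 0.5, with a list median of 0.69. Of 40 genes of the kinetochore, centromere and spindle checkpoint, 22 were higher and the median was 0.51. The spindle assembly and cytokinesis list had 13 of 25 higher (median 0.55), and the mitotic entry list of kinases, phosphatases and cyclins had 9 of 20 higher (median 0.49). For comparison, 4.69% of all genes tested were higher beyond 0.5, and the median of all genes was 0.006. With an assumed coefficient of variation of 0.1 between cultures, the 75 genes left at either limit all lay beyond 1. No member of these 4 lists did, so their calls at 0.5 were not kept under it. Each of the 4 lists also had 4N/2N ratios over 0 with vehicle, with medians between 0.42 and 0.65, and larger ones with CYC065, with medians between 0.96 and 1.23.
*Cenpf*, a kinetochore protein, had 233 and 370 CPM with vehicle and 78.3 and 231 CPM with CYC065. CYC065 4N cells thus held the level of vehicle 2N cells, and the difference of the ratios was 0.90 (standard error 0.02). *Kif14*, a kinesin of cytokinesis, had 68.2, 99.6, 19.2 and 50.7 CPM, with a difference of 0.86 (standard error 0.06). *Kif11*, the kinesin that pushes spindle poles apart, had 144, 201, 43.3 and 107 CPM and a difference of 0.82. *Nusap1* and *Aspm*, spindle proteins, had differences of 0.86 and 0.85, and *Hjurp*, the chaperone of centromeric CENP-A, and *Knl1*, a kinetochore scaffold, had 0.87 and 0.85. *Mastl*, the Greatwall kinase, led the mitotic entry list at 0.76, ahead of the inhibitory kinase *Pkmyt1* (0.66), cyclin B1 (*Ccnb1*, 0.65) and the MuvB subunit *Lin9* (0.64). *Cdk1* itself (0.46, standard error 0.03) and *Ccna2* (0.499) did not pass the limit. *Ccnb1* and *Kifc1*, at 0.82, have fractional counts, which arise where reads are shared with similar genes, and are less certain.

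The machinery next to the spindle was mixed. *Espl1*, separase, the protease that cleaves cohesin at anaphase, had 206, 256, 56.2 and 139 CPM and a difference of 1.00 (standard error 0.03) that just missed the limit of 1. It was 1 of 3 called of 20 genes of the anaphase-promoting complex and its regulators, whose median was 0.03. The other two were *Ube2c* (0.55), the ubiquitin-conjugating enzyme of that complex, and its inhibitor *Fbxo5* (0.54). Of 18 condensin, cohesin and topoisomerase II genes, 7 were higher, among them *Ncaph* (0.83) and *Ncapg* (0.76) of condensin I, and *Top2a* (0.94) and *Mki67* (0.80) with fractional counts. Of 16 genes of centriole duplication, *Sass6* (0.86), *Pcnt* (0.72), *Nek2* (0.65) and *Cep152* (0.62) were higher, and *Cetn2* was lower by a difference of -0.50.

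**Figure D3:**
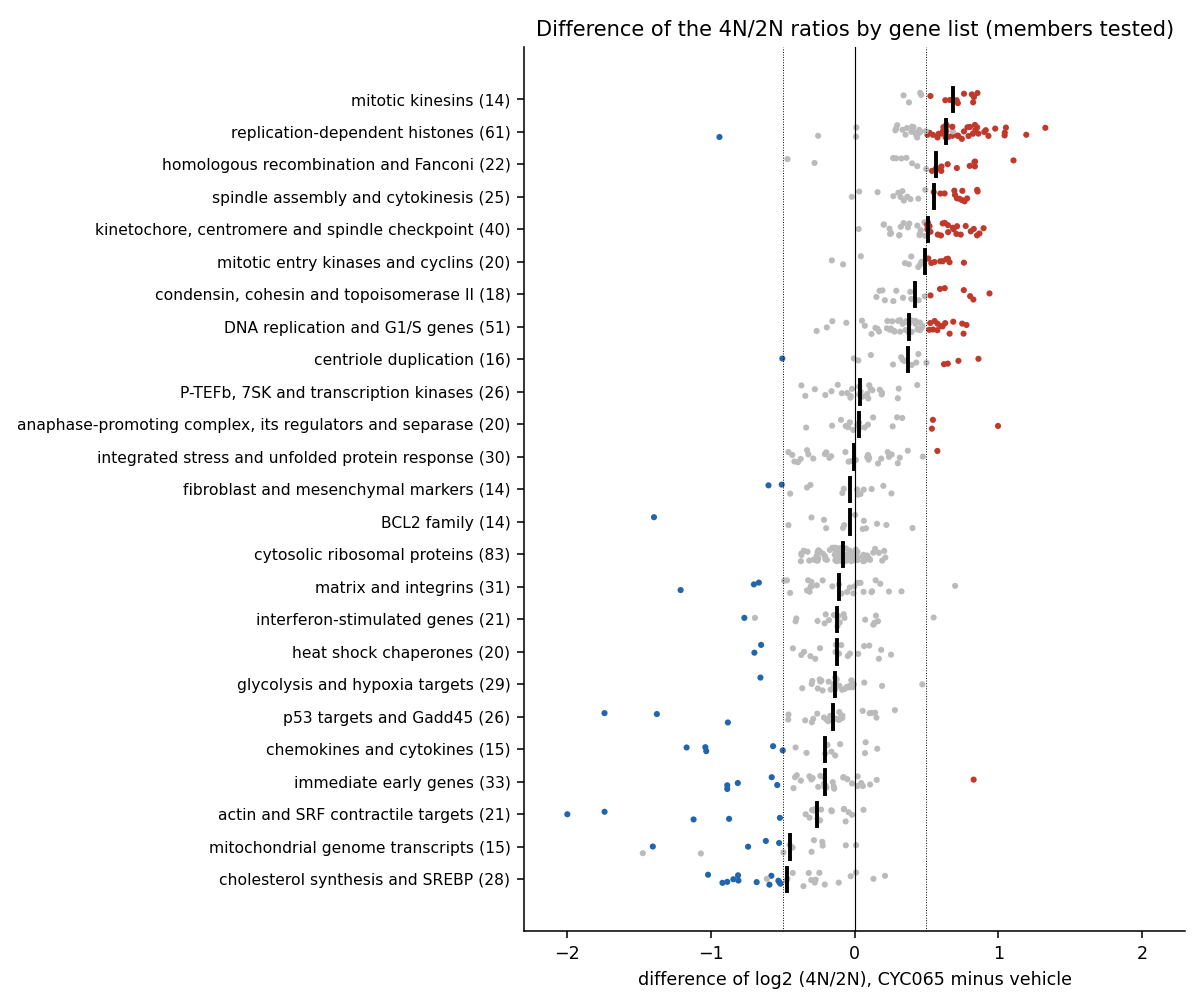
Points are the tested members of each gene list, with their number in parentheses, at their difference of log2 (4N/2N), CYC065 minus vehicle. Red and blue points were called higher and lower beyond 0.5, bars mark list medians, dotted lines the limit of 0.5, and 1 member lies outside the axis. The mitotic kinesins are highest with a median of 0.69 and the cholesterol synthesis list lowest with -0.47.

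Genes of DNA synthesis and repair also had higher differences, but from another starting point. Of 51 DNA replication and G1/S genes, 14 were higher beyond 0.5 and none lower (median 0.38). None lay beyond 1, so these calls too were not kept with the assumed coefficient of 0.1. With vehicle their median 4N/2N ratio was -0.08 on the log2 scale, and with CYC065 it was 0.31. *Pole*, the catalytic subunit of polymerase epsilon, had 223 and 201 CPM with vehicle and 45.2 and 68.4 CPM with CYC065. *Chaf1a*, a histone chaperone of the replication fork, had 183, 151, 61.5 and 85.7 CPM, and *Lig1*, the ligase of Okazaki fragments, had the largest difference in the list, at 0.78. In each of these genes the vehicle 2N library lay above vehicle 4N, and CYC065 4N lay above CYC065 2N. The differences of *Pcna* (0.12) and *Mcm2* (0.07) were under the limit, and those of the cyclin E genes lay below 0, at -0.19 for *Ccne1* and -0.15 for *Ccne2*.
Of 22 genes of homologous recombination and the Fanconi pathway, 13 were higher (59.1%), with a median of 0.565 and median 4N/2N ratios of 0.04 with vehicle and 0.62 with CYC065 on the log2 scale. Beside *Bard1*, these included *Brca1* (0.84), the Fanconi protein *Fancd2* (0.83) and *Brca2* (0.59). *Bard1* alone of the 22 lay beyond 1, so the other calls were not kept with the assumed coefficient of 0.1. *Brca1* had 86.0, 81.4, 43.1 and 73.0 CPM, so CYC065 lowered it in both populations and less in 4N cells. In unsorted vehicle cells, 21 of the 22 repair genes and 44 of the 51 replication genes lay below both sorted vehicle libraries. None did so by more than 2-fold, and 5341 of all 12215 genes also lay below both. The part of this gap in the differences was not tested. Of 61 replication-dependent histone genes, 38 were higher and *Hist2h2be* was lower, and 56 of the 61 have fractional counts. In the unsorted vehicle library, 55 of the 61 lay more than 2-fold above both sorted vehicle libraries on a scale set over all 6 libraries, as did 4.17% of all genes, and the part of this gap in the differences was not tested. *Hist1h1b*, the linker histone H1.5, was among those with whole counts and had a difference of 0.76.

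The share of promoters with the elements named above differed between these groups. RefSeq promoters could be matched for 9242 of the 12215 genes. A CHR match was present in 12 of 13 promoters of mitotic kinesins (92.3%) and 16 of 22 of the spindle and cytokinesis list (72.7%), in 30.9% of promoters of genes higher beyond 0.5, in 12.3% of those lower beyond 0.5, and in 13.6% of all matched promoters. In the homologous recombination and Fanconi list, to which *Bard1* belongs, 2 of 17 promoters held a CHR match (11.8%), a share below that of all promoters. A CCAAT match was present in 40.0% of all promoters, in 56.0% of those of genes higher and 42.3% of those of genes lower beyond 0.5, in 69.2% of kinesin promoters and in 18 of 20 promoters of the cholesterol list (90.0%), whose genes had lower differences. The DNA replication list held CHR in 19.5%, but held an E2F match in 51.2%, against 10.5% of all promoters and 63 of 350 of those of genes higher beyond 0.5. An AP-1 match (TGACTCA or TGAGTCA) was present in 6.79% of promoters of genes lower beyond 0.5, in 1.14% of those higher and in 3.35% of all. A CArG box, searched for after the contractile genes had been seen, was present in 4 of 18 promoters of the contractile list (22.2%) and in 1.29% of all, but also in 3 of 32 promoters of genes higher beyond 1. These matches are counts of letters in a window of 300 bases and no test was made of them.

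Noncoding and intronic RNAs made up much of the higher group. Of the 110 genes higher beyond 1, 30.9% were protein coding, against 82.2% of those lower beyond 1 and 91.9% of all genes tested. The GENCODE class TEC, unspliced transcribed regions still awaiting experimental proof, gave 47 of the 110 genes. Of 225 TEC genes tested, 87 were higher beyond 0.5 (38.7%) and 3 lower. Of these, 157 lie inside a protein-coding gene on the same strand and touch no exon of one, and 69 of them were higher (43.9%) and none lower. The protein-coding genes that hold them behaved otherwise, with 2 higher and 1 lower of 141 tested and a median difference of 0.09 against 0.62 for the intronic TEC genes. In 146 of 160 pairs of such a TEC gene and a tested host, the TEC gene had the higher difference.
The intronic TEC genes had a median log2 4N/2N ratio of -0.53 with vehicle and of 0.13 with CYC065. With CYC065, their median response was 0.20 in 2N, 0.91 in 4N and 0.31 in unsorted cells. *Gm37677* (chr1:134819916-134827549), chosen after its values were seen, had 178 and 70 counts with vehicle and 156 and 241 counts with CYC065. Vehicle 4N was thus its lowest library and CYC065 4N its highest, with a difference of 1.81 (standard error 0.27). The class of sense intronic RNAs had 11 of 27 genes higher and none lower, with medians of -0.59 with vehicle and -0.02 with CYC065. For snoRNAs, which are cut out of introns, 9 of 34 were higher and none lower, with medians of -0.63 and -0.34, but 24 have fractional counts. Antisense RNAs had calls in both directions, with 10 of 97 higher (10.3%), 16 lower (16.5%) and a median of -0.13. Of 149 lincRNAs, 22 were higher and 13 lower. The strand setting of the counting is not known here, and the values of intronic TEC, sense intronic and antisense genes depend on it. TEC genes have few counts, with a median of 172 in their highest condition, and antisense genes have a median of 176. Of 638 protein-coding genes in the middle range of TEC counts, 31 were higher (4.86%) and 77 lower (12.1%). Their median difference was -0.17, near that of the antisense genes. The sequenced RNA was total RNA depleted of ribosomal RNA, and the part that unspliced RNA of the host genes had in these values was not tested.

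**Figure D4:**
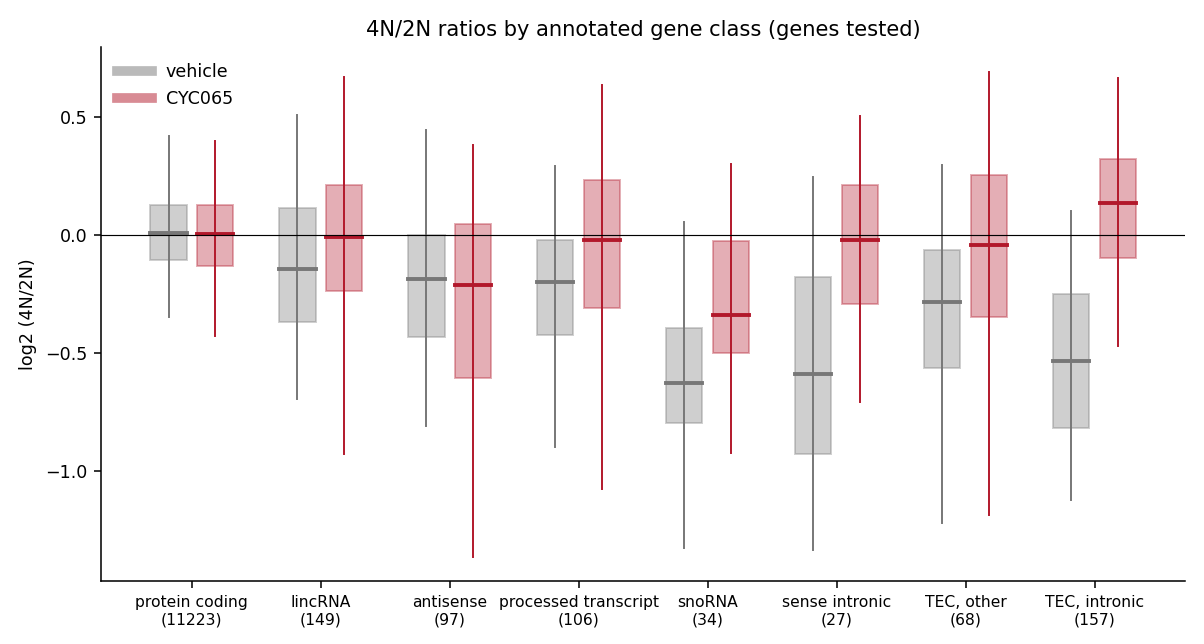
Boxes span the middle range from the 25 to the 75 percentile of log2 (4N/2N) of the tested genes of each annotated class, with a bar at the median and lines from the 5 to the 95 percentile, in vehicle (gray) and CYC065 (red). Protein-coding genes center on 0 under both treatments, while intronic TEC genes have medians of -0.53 with vehicle and 0.13 with CYC065.

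Of 26 p53 targets and Gadd45 genes, 3 had a lower difference beyond 0.5 (11.5%), and of 33 immediate early genes, 5 did (15.2%). The share of all genes tested was 4.54%. Of those called, *Gadd45b* and *Gadd45g* alone lay beyond 1. *Gadd45b*, a stress-induced protein of growth arrest and DNA damage signaling, had 7.85 and 8.06 CPM with vehicle and 31.2 and 9.60 CPM with CYC065. The CYC065 2N library alone was high. *Gadd45g*, of the same family, had 1.71, 1.36, 8.04 and 2.46 CPM and a difference of -1.38 (standard error 0.25). In unsorted cells their log2 responses were 0.34 and -0.66, unlike the 1.99 and 2.23 of 2N cells. *Gadd45g* had 372 counts in unsorted vehicle cells, against 97 and 81 in sorted 2N and 4N vehicle cells. Of the 26 genes, 5 lay more than 2-fold above both sorted vehicle libraries in unsorted vehicle cells (19.2%, against 4.17% of all genes). In 1 gene the level lay as far below both, and the part of this gap in the differences was not tested. *Eda2r*, a p53-regulated death receptor, was the third called of 26 p53 targets and Gadd45 genes, at -0.88. The list median was -0.15, and *Cdkn1a* (p21) at -0.30 and *Mdm2* at -0.14 were not called. Of 33 immediate early genes, 5 were lower, led by the small MAF factors *Mafk* and *Maff* (both -0.89) and by *Csrnp1* (-0.81). *Nr4a3* was higher (0.83, with 72, 40, 309 and 342 counts), but fell to 0.64 without the first and 0.66 without the third column and was then not called. *Fos* had 1041, 552, 6085 and 3419 counts, so its ratio was near -1 under both treatments and its difference was -0.08.

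Contractile and secreted proteins were among the largest lower differences of the genes named. *Actg2*, smooth muscle gamma actin, had 8.47 and 20.6 CPM with vehicle and 9.05 and 5.51 CPM with CYC065. It was high in vehicle 4N cells alone, and the difference was -2.0 (standard error 0.11). *Tagln* (transgelin) had 7.43, 13.9, 1.75 and 0.980 CPM and *Myl9*, a myosin regulatory light chain, had 77.5, 104, 28.1 and 17.3 CPM, with differences of -1.74 and -1.12. With *Cnn1* (calponin, -0.87) and *Acta2* (-0.52, fractional counts), 5 of 21 actin and SRF contractile targets were lower and none higher. The list median was -0.26. Levels of all 5 called genes were higher in 4N than in 2N cells with vehicle and lower with CYC065. Unsorted cells stood apart from both sorted populations. On the scale of all 6 libraries, *Tagln* had 0.891 CPM in unsorted vehicle cells against 7.17 and 13.5 in sorted 2N and 4N cells, and *Myl9* had 17.0 against 74.9 and 101. *Actg2* had 7.91 against 8.18 and 20.1 CPM. Of the 21 genes, 19 lay below both sorted vehicle libraries in unsorted vehicle cells and 6 by more than 2-fold (28.6%, against 1.77% of all genes), and the part of this gap in the differences was not tested.
*Ogn* (osteoglycin), a matrix proteoglycan, had 851 and 913 counts with vehicle and 1637 and 731 counts with CYC065, a difference of -1.42. *Peg10*, a retrotransposon-derived imprinted gene, had 5.75, 14.5, 39.8 and 27.1 CPM, so that CYC065 raised it in both populations while the order of 2N and 4N cells turned round. *Vgf*, a secreted neuropeptide precursor, differed by -1.86, and *Tcp11l2*, whose function is less defined, by -1.63. *Tcp11l2* had only 20 and 40 counts with vehicle, and its counting interval ran from -2.40 to -0.84. *Dchs1*, a large cadherin of planar polarity, had -1.56, *Tmod2*, which caps actin filaments, had -1.55, and *Gpnmb*, a membrane glycoprotein, had -1.46. *Ppbp*, a platelet chemokine, had counts of 126, 337, 57 and 47, with a difference of -1.85, and 11 counts in unsorted vehicle cells. Of 15 chemokines and cytokines tested, 5 were lower, with *Ccl2* at -1.17, *Cxcl5* at -1.04 and *Ccl7* at -1.03. *Ccl2* had 27.0, 30.6, 20.3 and 10.2 CPM. *Cxcl5* lay at -0.94 without the first and -0.99 without the third column, and *Ccl7* at -0.88 without the first, short of the limit of 1. In the matrix and integrin list, 3 of 31 genes were lower, among them *Thbs1* (thrombospondin) at -0.67.

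The cholesterol synthesis list had the lowest median of those with at least 10 genes tested. Of 28 genes of sterol synthesis and its regulation by SREBP, 12 were lower beyond 0.5 (42.9%, against 4.54% of all genes) and none higher, with a median of -0.47. *Fdps* alone of the 28 lay beyond 1, so the other calls were not kept with an assumed coefficient of variation of 0.1 between cultures. *Hmgcs1*, which makes HMG-CoA, had 31.8, 43.0, 158 and 119 CPM and a difference of -0.84 (standard error 0.05). *Msmo1*, a sterol oxidase, had 24.3, 34.0, 64.7 and 48.8 CPM and -0.89. In both genes, 4N cells were the higher population with vehicle and the lower one with CYC065. *Fdps* (-1.02) and *Insig1* (-0.92) have fractional counts, and *Fdps* fell just short of the limit of 1 without the second column. The median log2 response of the list to CYC065 was 1.25 in 2N and 0.73 in 4N cells, but -0.16 in unsorted cells. The sorted vehicle libraries were the lowest in each gene named here. On the scale of all 6 libraries, *Hmgcs1* had 215 CPM in unsorted vehicle cells against 30.7 and 41.9 in sorted 2N and 4N cells, *Fdps* had 177 against 29.1 and 47.6, and *Insig1* had 149 against 25.8 and 36.4. Of the 28 genes, 27 lay above both sorted vehicle libraries in unsorted vehicle cells and 18 by more than 2-fold (64.3%, against 4.17% of all genes). The part of this gap between sorted and unsorted cells in the list's difference was not tested.
Of 15 transcripts of the mitochondrial genome, 4 were lower (median -0.45), *mt-Nd5* at -0.53 being the one with whole counts. The share of all counts from the mitochondrial genome was 0.38% in 2N and 0.614% in 4N cells with vehicle, 0.701% and 0.793% with CYC065, and 1.04% and 1.69% in unsorted cells with vehicle and with CYC065. The part of this share in the values of other genes was not tested.

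**Figure D5:**
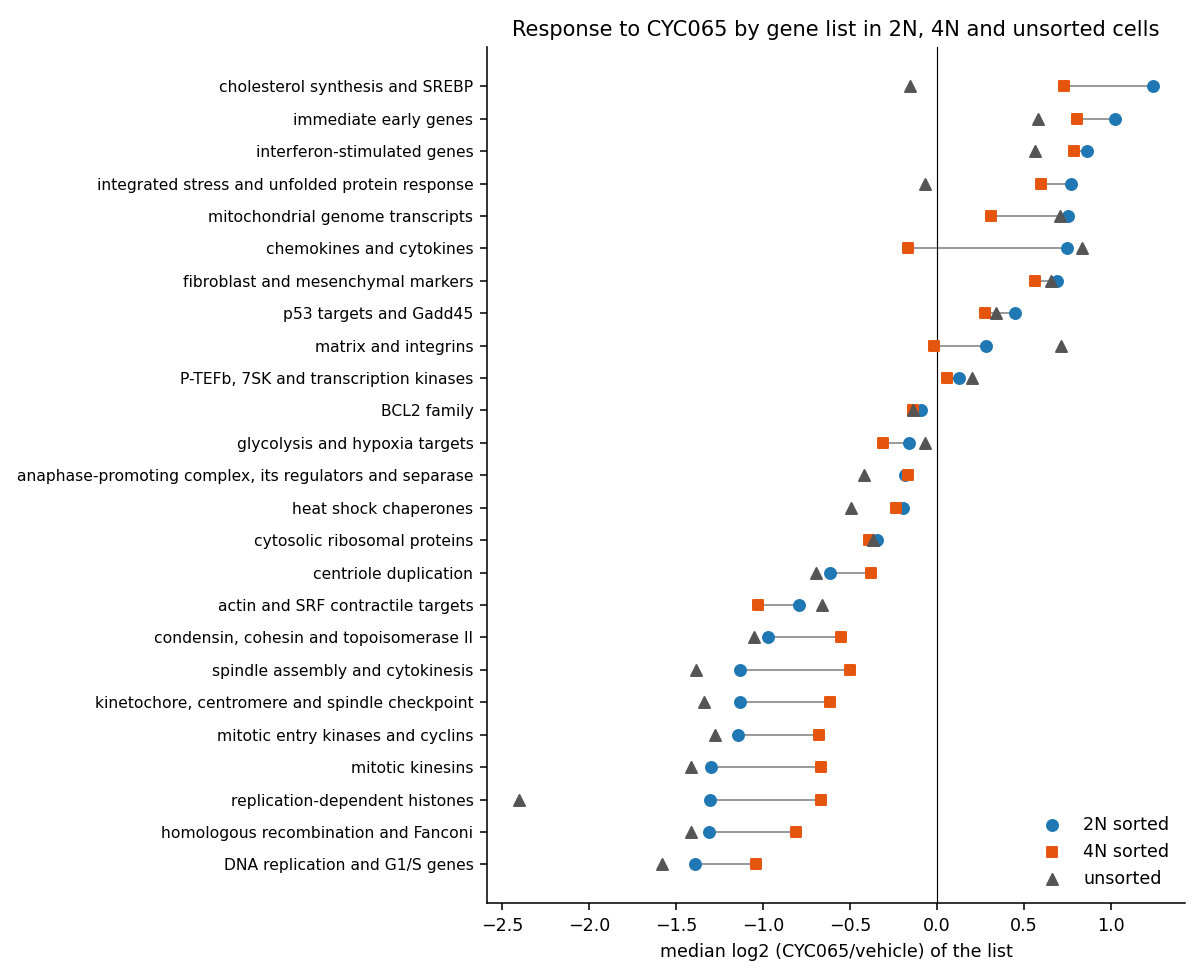
Symbols give the median log2 ratio of CYC065 to vehicle over the tested members of each list in 2N cells (circles), 4N cells (squares) and unsorted cells (triangles), and gray lines join 2N and 4N. The mitotic and DNA synthesis lists have medians below 0 that are closer to 0 in 4N cells, and the cholesterol list has 1.25 in 2N, 0.73 in 4N and -0.16 in unsorted cells.

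Other groups had few or no calls. None of 26 genes of P-TEFb, the 7SK complex and the transcription kinases was called at 0.5 in either direction with edgeR or DESeq2 (median 0.04), while 14 had an unadjusted P below 0.05 with edgeR. *Cdk8* at 0.44 (fractional counts) and *Cdk9* at -0.37 had the largest values. None of 83 cytosolic ribosomal protein genes was called with either tool (median -0.08), while 63 had an unadjusted P below 0.05 with edgeR. Of 30 genes of the integrated stress and unfolded protein responses, *Atf5* alone was called (0.58), and of 20 heat shock chaperones, *Bag3* (-0.70) and *Hspa1b* (-0.65) were lower. The 14 BCL2 family genes had *Bcl2l15* called lower (-1.40), a gene with at most 129 counts that was lost without the first (-0.63) or second column. *Mcl1*, a short-lived survival factor, had -0.20 and *Bcl2l11* (BIM) 0.06. Of 29 glycolysis and hypoxia targets *Adm* (-0.66) was lower, and of 21 interferon-stimulated genes *Isg20* (-0.77). *Snai2* (-0.60) and *Lum* (-0.51) were lower among 14 mesenchymal markers, whose median was -0.03. The 3 tested immune markers and the single tested lung epithelial and endothelial markers, *Foxa2* and *Egfl7*, were not called.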

How the data were processed

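RNA-Seq was performed on 1 cell line under 6 conditions. Per the labels and methods, the authors sequenced rRNA-depleted stranded libraries as paired ends, used cutadapt 1.18 for trimming, STAR 2.7.0f for mapping to mm10 and, for GENCODE M21 genes, RSEM (1.3.1 in the submitters' processing notes). The deposited values are RSEM expected counts per gene, not normalized, in 3 columns per condition that are parts of 1 library. The strand setting of the counting is not given in the sources used here.

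Expected counts of the 12 sorted columns were rounded and fitted with edgeR 4.0.16 (R 4.3.3), using quasi-likelihood tests of the treatment by DNA content term, TMM normalization and Benjamini-Hochberg adjustment over 12215 genes. Genes reaching a summed count of 100 in any condition were kept, and the prior count was 0.125. Calls needed an adjusted P below 0.05 and a difference beyond 1 or 0.5. Unsorted responses and promoter matches were described without a test, and unsorted levels were set beside sorted ones after TMM over all 18 columns, a comparison added after seeing the data. Standard errors cover counting and the division of shared reads only. The members and gene lists were chosen with earlier results of these data known. Genes were named as the 12 largest differences beyond 1 in each direction, with at least 300 counts, whole counts and an established symbol (10 qualified as higher), plus up to 4 called members of each list, or the 2 largest where fewer than 2 were called. Other members named, such as *Cdk1*, *Pcna*, *Fos*, *Cdkn1a* or *Mcl1*, were added for their roles after values were seen, as was the CArG box. On simulated interactions among 11817 genes, edgeR recovered 99 of 100 genes set at 1.5 and 100 of 100 at 2 on the log2 scale, with 1 unchanged gene called. Only genes above a set count were changed, and neither main effects nor spread between cultures were simulated. The recovery therefore does not cover genes with few counts or spread between cultures. Alternatives were a replicate block, DESeq2 1.42.0, other scalings, filters and prior counts, whole counts only, assumed variation between cultures, counting intervals and leaving out columns. Tables were handled in Python 3.11.15 with pandas 2.3.3. The study's own differential expression, MetaCore, qPCR, imaging and tumor data were not used here. Some genes that the naming rule selects are not reported here.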

Additional observations from a re-analysis of the deposited data

Results flagged for a closer look

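The 4N/2N ratios of 256 genes differed beyond 1 between the treatments in the test of the difference itself, and this flags each gene with the largest values. The higher ones were *Neil3* (1.25), *Slc9a2* (1.17), *Dleu2* (1.15), *Bard1* (1.11), *Nsl1* (1.06), *Lrr1* (1.05), *Glis1*, *Dscc1* and *Ankle1* (1.04 each) and *Prdm1* (1.00). The lower ones were *Actg2* (-2.0), *Peg10* (-1.89), *Vgf* (-1.86), *Ppbp* (-1.85), *Gadd45b* and *Tagln* (-1.74 each), *Tcp11l2* (-1.63), *Dchs1* (-1.56), *Tmod2* (-1.55), *Gpnmb* (-1.46) and *Ogn* (-1.42). Each value compares 4 single libraries, so a difference between cultures and an effect of CYC065 cannot be told apart. No condition held 4 libraries, so no search for outlying libraries was made.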

How the results depend on the processing

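The count of genes beyond 1 (256, with 110 higher and 146 lower) became 561 (301 and 260) with no filter and 538 (283 and 255) at a summed count of at least 30. It became 75 (28 and 47) with an assumed coefficient of variation of 0.1 between cultures, 3 (2 and 1) with 0.2, and 54 (21 and 33) where the 95% counting interval had to lie wholly beyond 1. The count beyond 0.5 (1127, with 573 and 554) became 75 (28 and 47), 3 (2 and 1) and 477 (247 and 230) under the same assumptions of 0.1 and 0.2 and the interval beyond 0.5. Leaving out 1 column of each condition gave between 247 and 277 genes beyond 1 and between 991 and 1022 beyond 0.5. DESeq2 called 216 and 958, and counts stayed within 1.5 times with total count scaling, DESeq2 size factors, whole counts only and a prior count of 2. With the column number as a replicate block, 259 and 1124 genes were called and no call of the 103 named genes changed. Correlations of same-numbered columns lay between -0.204 and 0.285, and the numbers mark parts of libraries, not pairs. Of the 103 named genes, 72 had a weaker call status with an assumed coefficient of 0.1 and 91 with 0.2. The 31 and 12 that kept their status include genes never called, such as *Cdk9* and *Foxa2*, which a larger error cannot change. They are thus not counts of calls that remained, and this assumption for single genes was added after seeing the data. *mt-Co3*, *mt-Nd3*, *Hspa1b*, *Adm* and *Lum* lost their calls without 1 of the columns. *Hist1h2bh* and *Hist1h2an* then fell under 1 but stayed called beyond 0.5. No called gene named here turned its direction under the alternatives run. Of lists with a median beyond 0.05 in size, the single tested endothelial marker turned, to 0.169 without the third column, and the lists of BCL2 and stress response genes, with medians nearer 0, changed sign under some. Spread between cultures was not measured, and genes near 100 counts have wide counting errors.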
